A study of Mus musculus with 5 samples.

Results

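Il17a-positive cells of the pooled Vγ6 library were compared with Il17a-negative cells of that library. The positive cells were selected on their own Il17a reading, so Il17a itself is not a result. A cell was kept when it had at least 200 genes, at most 10% of its transcripts from mitochondrial genes, at least 800 transcripts, and none from Lyz2 or C1qb, a pair of macrophage genes. Transcripts were counted by unique molecular identifiers (UMIs), 1 per captured mRNA molecule. Of 1639 kept cells, 223 had at least 1 Il17a UMI and formed the positive side, and 1416 had none and formed the negative side. The whole series held 7240 cells that passed the same filters, in 5 libraries.

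The study sequenced single γδ T cells of mice, sorted on a cytometer by the γ chain of their antigen receptor, Vγ4 or Vγ6. The pooled library joined Vγ6 cells of 3 tissues without a record of which cell came from which tissue. Per the labels, its lymph node cells came from TcrdCreER mice, its thymus cells from ACT-FLPe mice and its ear skin cells from TcrdH2BeGFP mice, all 8 to 10 weeks old. Genotype and tissue therefore cannot be told apart in it, and no treatment is named. Both sides of the comparison draw on the same 3 strains, in shares that were not recorded. The other 4 libraries came from C57BL/6 mice 8 weeks old. They held Vγ6 cells from thymus, from peripheral lymph nodes (pLN) or from the skin of the ear, and Vγ4 cells from ear skin. Each was 1 library, and how many mice entered it was not given in the sources used here.

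Vγ6 cells are innate-like γδ T cells that develop in the fetal thymus and settle in skin, mucosa and other tissues. They are known as an early source of interleukin-17A (IL-17A), a cytokine that makes epithelial and stromal cells recruit neutrophils. IL-17 production is switched on by interleukin-1β and interleukin-23. IL-17F, the closest relative of IL-17A, pairs with itself or with IL-17A.

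Il17a and Il17f are neighbours. On the mouse genome build GRCm38, Il17a spans positions 20730905 to 20734496 of chromosome 1 on the forward strand, and Il17f spans 20777146 to 20790617 on the reverse strand. They are separated by 42.6 kb, in which the annotation places no other whole gene. The 250 bases before each gene's RefSeq start (GRCm38.p6) are shown because Il17f stood out most in the comparison. They lie at chr1:20730655-20730904 for Il17a, on the forward strand, and at chr1:20784271-20784520 for Il17f, on the reverse strand and inside the longer annotated span of that gene. Capitals mark matches to 2 short motifs, searched on both strands and written 5′ to 3′.
Il17a: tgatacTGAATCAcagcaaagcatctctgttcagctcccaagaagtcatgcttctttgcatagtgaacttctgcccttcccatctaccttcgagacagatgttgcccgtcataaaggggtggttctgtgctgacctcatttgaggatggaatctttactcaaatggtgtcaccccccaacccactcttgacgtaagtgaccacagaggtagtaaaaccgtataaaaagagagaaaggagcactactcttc
Il17f: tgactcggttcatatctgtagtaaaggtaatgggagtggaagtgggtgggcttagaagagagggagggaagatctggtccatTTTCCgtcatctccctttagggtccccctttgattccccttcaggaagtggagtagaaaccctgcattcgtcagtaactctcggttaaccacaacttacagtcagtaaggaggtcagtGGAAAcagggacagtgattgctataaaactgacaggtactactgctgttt
The AP-1 motif TGANTCA was matched in Il17a at 244 bases before the start and not in Il17f, and 6.75% of 32851 promoter windows of the same length held it. The NFAT motif GGAAA was matched in Il17f only of this pair, at 50 bases and, on the opposite strand, at 168 bases, a match found in 55.6% of all windows. A match is a description of these letters, not a binding site.

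The positive share of kept cells was 13.6% (exact Clopper-Pearson 95% interval 12.0 to 15.4). Intervals here cover counting error only, not differences between mice or preparations. Those on UMI counts take each UMI as independent, so they are too narrow where a gene's UMIs sit in few cells. Both sides were read at nearly the same depth: the median was 1467 UMIs and 817 genes per positive cell, against 1405 UMIs and 800 genes per negative cell. Mitochondrial transcripts took a median of 3.78% in positive cells and 3.56% in negative cells. Among 523 cells with fewer than 1200 UMIs, 12.8% were positive, and the share was 14.2%, 14.7% and 11.3% in the next 3 bands of depth, so it did not climb steadily with depth. When every cell was thinned to 800 UMIs, 10.1% stayed positive.

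Positive cells held 669 Il17a UMIs, spread unevenly. There were 121 cells with 1 UMI, 61 with 2 to 4 and 41 with 5 or more, and the highest cell had 23. Free RNA in the droplets can give a stray UMI. The 44 barcodes left out for a Lyz2 or C1qb UMI had a median of 2085 UMIs. Of these, 7 had Il17a (15.9%, 6.64 to 30.1), and 2 had at least 2 UMIs of it. Of the 11 among them with no UMI of Cd3d, Cd3e or Cd3g, genes of the T cell receptor complex, 3 had Il17a and 0 had 2 or more. A single Il17a UMI therefore cannot be told apart from background by its frequency, and levels are also given by the number of Il17a UMIs.

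**Figure D1:**
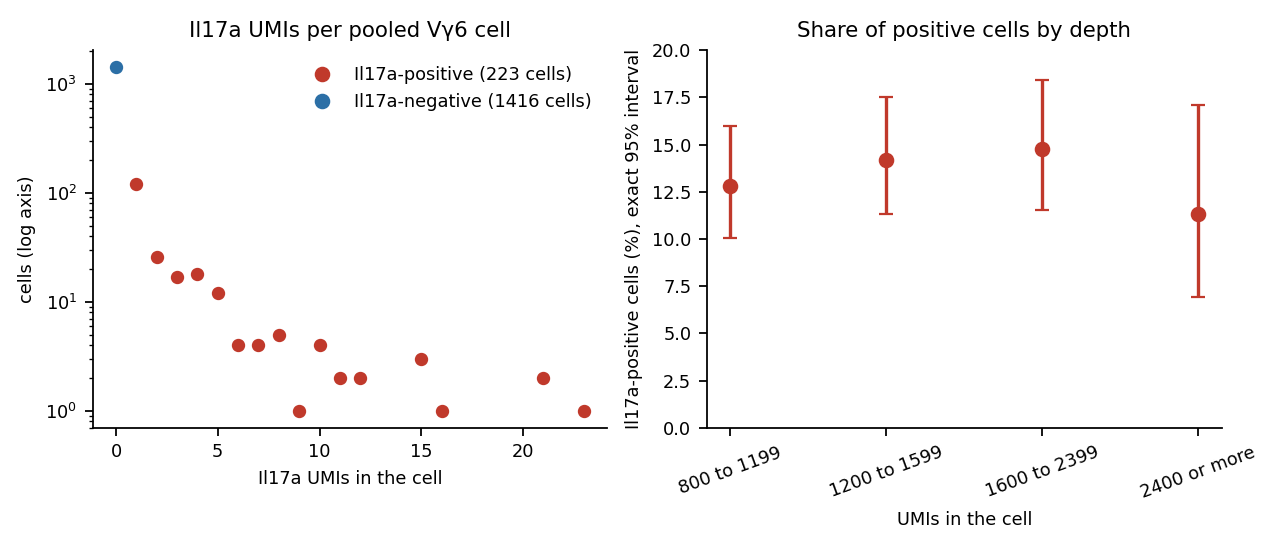
Left, the number of pooled Vγ6 cells (log axis) at each count of Il17a UMIs, with 223 positive cells and 1416 negative cells. Right, the percent of cells that were positive in 4 bands of UMIs per cell with exact 95% intervals. The shares lie between 11.3% and 14.7%, and their intervals overlap.

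The fitted tissue mixture differed between the sides, and the strain that gave each tissue cannot be told apart from it. Each pooled cell was given to the skin, pLN or thymus Vγ6 library whose summed profile best fitted its transcripts. The profiles left out Il17a and mitochondrial genes. All other genes took part, so the UMIs of a gene helped place the cells that carried them. Ratios of a gene within fitted classes, or with the mixture weighted, are therefore not independent of the fit and are a description. Positive cells were given to skin in 81 cases (36.3%, 30.0 to 43.0), to pLN in 47 (21.1%, 15.9 to 27.0) and to thymus in 95 (42.6%, 36.0 to 49.4). Negative cells were given to skin in 359 (25.4%, 23.1 to 27.7), to pLN in 458 (32.3%, 29.9 to 34.9) and to thymus in 599 (42.3%, 39.7 to 44.9). Seen the other way, 18.4% of skin-fitted, 9.31% of pLN-fitted and 13.7% of thymus-fitted cells were positive. The fit returned at least 98.3% of the cells of each tissue library to their own library, but on the profiles those cells had made. Skin fits were thus more frequent and pLN fits less frequent on the positive side, and ratios are also given within the fitted classes where these differ.

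UMIs of each side were summed and given as CPM (counts per 1000000) of that sum without Il17a, 352123 UMIs on the positive side and 2289254 on the negative side. A ratio is positive over negative CPM, with an exact 95% counting interval in parentheses. With 1 library there is no test between the sides. A gene was called at a ratio of at least 2, or at most 0.5, with an interval that excludes 1 and at least 20 CPM on the higher side. Of 5671 genes with 20 CPM or more on either side, 81 were called higher (1.43%) and 228 lower (4.02%). Since these calls come from the contrast that defined the cells, the shares are a description. They are the background for all counts by gene list below. Of the 81, 61 rested on fewer than 20 UMIs in positive cells, and with a minimum of 50 CPM 22 genes were called higher and 87 lower. Over the 5671 genes the median log2 ratio stood at -0.05.

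**Figure D2:**
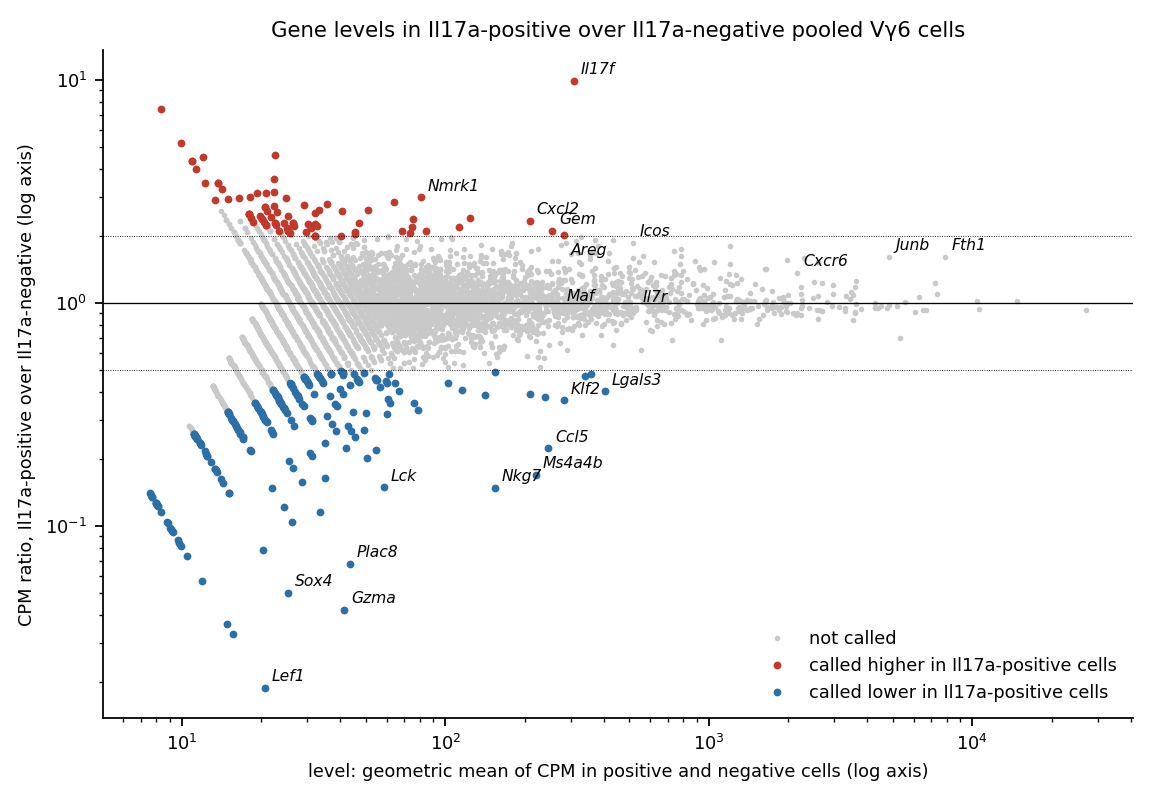
Each point is 1 gene with a UMI on both sides, with its level (geometric mean CPM, log axis) against its ratio of Il17a-positive over Il17a-negative cells (log axis). Il17f stands alone at 9.96 at its level, the 81 genes called higher (red) lie mostly at low levels, and those called lower (blue) reach 0.0188 at Lef1.

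Among secreted cytokines, Il17f was far above the others. It had 343 UMIs in positive cells (974 CPM, 874 to 1083) and 224 UMIs in negative cells (97.8 CPM, 85.5 to 112), a ratio of 9.96 (8.39 to 11.8). Il17f was found in 38 of 223 positive cells (17.04%, 12.3 to 22.6) and in 77 of 1416 negative cells (5.44%, 4.31 to 6.75). Of the 44 Lyz2 or C1qb barcodes 2 had it (4.55%, 0.555 to 15.5), too few to set a background. The highest positive cell carried 23.0% of the side's Il17f UMIs and the top 5 carried 61.5%, yet the ratio was 8.50 without the highest cell of each side. By the number of Il17a UMIs, the Il17f level was 97.8 CPM at 0, 702 CPM at 1 (588 to 833), 617 CPM at 2 to 4 (467 to 800) and 2144 CPM at 5 or more (1819 to 2511). The share of cells with an Il17f UMI was 14.0% at 1 Il17a UMI, 16.4% at 2 to 4 and 26.8% at 5 or more. Summed over cells with a single Il17a UMI, the Il17f level was thus 7.18 times that of cells with none. These 132 Il17f UMIs lay in 17 of 121 cells.

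By fitted class, most Il17f UMIs lay in skin-fitted cells. Among the tissue libraries used for the fit, skin Vγ6 held the most Il17f, so Il17f UMIs themselves helped place cells in this class. In skin-fitted cells Il17f stood at 2858 CPM in positive and 351 CPM in negative cells, a ratio of 8.15 (6.75 to 9.87). In thymus-fitted cells Il17f stood at 67.9 CPM in positive and 40.8 CPM in negative cells (1.67, 0.747 to 3.36), on 10 UMIs in positive and 44 UMIs in negative cells. In pLN-fitted cells it stood at 44.6 CPM in positive and 16.4 CPM in negative cells (2.71, 0.638 to 8.96), on 4 UMIs in positive and 12 UMIs in negative cells. With negative cells weighted to the fitted mixture of the positive cells the ratio over all cells was 7.48.

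Of 13 measured secreted cytokines and growth factors, with a median log2 ratio of 0.23, 8 were not called and 1 was called lower. The other 4 were called higher, beside 1.43% of all genes. Besides Il17f these were Tnf, the gene of tumour necrosis factor, at 111 CPM in positive and 50.2 CPM in negative cells (2.20, 1.49 to 3.20); Csf2, which encodes the myeloid growth factor GM-CSF, at 65.3 CPM in positive and 31.9 CPM in negative cells (2.05, 1.22 to 3.31); and Areg, which encodes the epidermal growth factor receptor ligand amphiregulin. Areg had 142 UMIs in positive cells (403 CPM) and 456 UMIs in negative cells (199 CPM), a ratio of 2.02 (1.66 to 2.45). It was found in 21.5% of positive and 12.4% of negative cells. Csf2 rested on 23 UMIs in 14 positive cells, with 60.9% of them in the top 5, and on 73 UMIs in negative cells. In pLN-fitted cells it had 0 UMIs in positive and 29 UMIs in negative cells. Without the highest cell of each side the ratio was 1.79 for Csf2, 1.90 for Areg and 2.05 for Tnf. With the negative cells weighted to the same fitted mixture, Areg had a ratio of 1.47, Tnf 1.67 and Csf2 1.82, so of the 4 only Il17f remained called.

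Il22, the gene of a cytokine that acts on epithelial barriers, was carried by few cells. It had 463 CPM in positive and 275 CPM in negative cells (1.68, 1.41 to 2.00), with an Il22 UMI in 17 of 223 positive cells and 93 of 1416 negative cells. The top 5 positive cells held 82.2% of its UMIs there, and without the highest cell of each side the ratio was 1.06. Il22 had a ratio of 4.29 (3.20 to 5.75) in skin-fitted cells, on 98 UMIs in positive and 95 UMIs in negative cells, and 1.01 (0.770 to 1.32) in thymus-fitted cells. In pLN-fitted cells it had 0 UMIs in positive and 64 UMIs in negative cells. Its level across 0, 1, 2 to 4 and 5 or more Il17a UMIs was 275, 447, 86.6 and 989 CPM, which shows no order. Il16 was the cytokine called lower, with 22.7 CPM in positive and 59.0 CPM in negative cells (0.385, 0.163 to 0.781), on 8 UMIs in positive and 135 UMIs in negative cells; in skin-fitted cells it stood at 1.60 (0.447 to 4.78). Ltb, which encodes lymphotoxin β, was the most abundant member at 1954 CPM in positive and 1377 CPM in negative cells, at 1.42 (1.30 to 1.54). Ifng, the gene of interferon-γ, had 0 UMIs in positive cells (exact 95% interval 0 to 10.5 CPM) and 4 UMIs in negative cells (1.75 CPM). This gives no direction.

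Secreted chemokines went different ways. Cxcl2, a neutrophil attractant, had 321 CPM in positive cells and 137 CPM in negative cells (2.34, 1.87 to 2.91), but 66.4% of its positive-cell UMIs sat in 5 cells. Within fitted classes Cxcl2 was higher only in skin-fitted cells, at 113 UMIs in positive and 282 UMIs in negative cells (1.67, 1.33 to 2.08), and had 0 UMIs in the positive cells fitted to pLN or thymus, against 4 and 28 UMIs in the negative cells of those classes. Ccl5, a chemokine of cytotoxic lymphocytes, was lower, with 116 CPM in positive cells and 522 CPM in negative cells (0.223, 0.159 to 0.305), though in skin-fitted cells its ratio was 1.11 (0.682 to 1.74). Xcl1 was lower as well, at 28.4 CPM in positive and 88.7 CPM in negative cells (0.320, 0.151 to 0.601), on 10 UMIs in positive and 203 UMIs in negative cells.

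Outside the cytokines, 6 other genes called higher in the pool are known from metabolism, vesicle traffic, signalling and survival. Nmrk1, a kinase of NAD synthesis from nicotinamide riboside, had 139 CPM in positive and 46.7 CPM in negative cells (2.98, 2.08 to 4.21). Gcnt2, a glycan-branching enzyme, had 108 CPM in positive and 38.0 CPM in negative cells (2.84, 1.89 to 4.20), and Stx11, a syntaxin of vesicle fusion, had 193 CPM in positive and 79.9 CPM in negative cells (2.42, 1.80 to 3.21). Bcl2l1, which encodes the survival protein Bcl-xL, had 168 CPM in positive and 76.0 CPM in negative cells (2.20, 1.61 to 2.98). Gem, a small GTPase of the RGK family, had 369 CPM in positive and 176 CPM in negative cells (2.10, 1.71 to 2.57), and Spry1, a feedback inhibitor of receptor tyrosine kinases, had 99.4 CPM in positive and 47.2 CPM in negative cells (2.11, 1.40 to 3.11). None of these rested on 1 cell: the highest positive cell held at most 10.3% of the UMIs of each of the 6. They were also found in more of the cells, for example in 17.5% of positive cells against 6.78% of negative cells for Nmrk1, and in 26.9% of positive against 17.7% of negative cells for Gem. With the weighted mixture 4 of the 6 fell under the 2-fold limit, Stx11 at 1.89, Bcl2l1 at 1.71, Gem at 1.68 and Spry1 at 1.67, while Nmrk1 stood at 2.69 and Gcnt2 at 2.64. Bcl2l1 had a ratio of 0.679 (0.0777 to 2.73) in pLN-fitted cells, and in the skin Vγ6 library Nmrk1 stood at 0.499 (0.172 to 1.19), Gcnt2 at 0.737 (0.273 to 1.71) and Bcl2l1 at 0.975 (0.597 to 1.54).

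Several abundant genes were higher by less than 2-fold. Fth1, the ferritin heavy chain that stores iron, had 10005 CPM in positive and 6187 CPM in negative cells (1.62, 1.56 to 1.68). Skil, which encodes the TGF-β pathway regulator SnoN, had a ratio of 1.97 (1.64 to 2.36) and was found in 44.4% of positive and 27.7% of negative cells. Furin, a proprotein convertase, stood at 1.91 (1.63 to 2.23), Smox, a spermine oxidase, at 1.91 (1.58 to 2.29) and Arl5c, an Arf-like GTPase, at 1.91 (1.61 to 2.26). Bcl2a1b had 1622 CPM in positive and 897 CPM in negative cells (1.81, 1.64 to 1.98), and its near-identical relatives Bcl2a1a and Bcl2a1d stood at 1.72 and 1.75, so how reads were split among these copies is uncertain. Fth1 had a ratio of 1.25 with the weighted mixture and 1.14 within skin-fitted cells, where it was also most abundant.

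Several regulators and receptors that define type 17 cells had ratios within counting error of 1. Maf, which encodes c-Maf, had 267 CPM in positive and 279 CPM in negative cells (0.956, 0.762 to 1.19), and Sox13 had 36.9 CPM in positive and 33.6 CPM in negative cells (1.10, 0.559 to 1.99). Rora, a nuclear receptor, was higher at 400 CPM in positive and 268 CPM in negative cells (1.49, 1.23 to 1.80), and Stat3, the signal transducer of the interleukin-23 receptor, stood at 1.74 (1.27 to 2.36). Of 18 measured type 17 transcription regulators, 0 were called higher and 3 lower, beside 1.43% and 4.02% of all genes. Their median log2 ratio was 0.17. The 3 lower ones were Sox4, Tcf7 and Lef1, described with the circulation and thymocyte genes.

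Of 19 measured type 17 receptors and surface genes, 0 were called higher and 1 lower, beside 1.43% and 4.02% of all genes. A ratio above 1 was found for 17, with a median log2 ratio of 0.38. Il23r, the interleukin-23 receptor, had 213 CPM in positive and 207 CPM in negative cells (1.03, 0.797 to 1.32), and Il7r, the receptor of the survival cytokine interleukin-7, had 517 CPM in positive and 546 CPM in negative cells (0.946, 0.805 to 1.11). Il1r1, the interleukin-1 receptor, was read at 99.4 CPM in positive and 58.5 CPM in negative cells (1.70, 1.14 to 2.48), on 35 UMIs in positive and 134 UMIs in negative cells. The costimulatory receptor Icos had 704 CPM in positive and 379 CPM in negative cells (1.86, 1.61 to 2.14) and was found in 56.1% of positive and 36.3% of negative cells. Cxcr6, a chemokine receptor of tissue-resident T cells, had 2525 CPM in positive and 1850 CPM in negative cells (1.36, 1.27 to 1.47), and Cd163l1, a scavenger receptor of IL-17-producing γδ T cells, had 1474 CPM in positive and 1099 CPM in negative cells (1.34, 1.22 to 1.47). Of the 4 other libraries, Icos and Cd163l1 were higher in positive cells in 2, skin Vγ6 and thymus Vγ6. In skin Vγ4, Icos had 220 CPM in positive and 292 CPM in negative cells, and Cd163l1 had 136 and 161 CPM. In pLN Vγ6, Icos had 130 CPM in positive and 146 CPM in negative cells, and Cd163l1 had 648 and 763 CPM. The member of the list called lower in the pool was Cd9, a tetraspanin, on 4 UMIs in positive cells and 164 in negative cells (0.159, 0.0427 to 0.414). Over the 9 γδ T17 markers other than Il17a, all detected on both sides, the summed level was 10354 CPM in positive and 8796 CPM in negative cells.

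Of 20 measured immediate early and AP-1 genes, which respond within a short time to activation, none was called. Of these, 19 had a ratio above 1, 9 of them with an interval above 1, with a median log2 ratio of 0.47 beside -0.05 over all genes. Junb, an AP-1 subunit, had 6140 CPM in positive and 3813 CPM in negative cells (1.61, 1.54 to 1.69), and Cd69, an early activation marker, had 511 CPM in positive and 283 CPM in negative cells (1.81, 1.52 to 2.13). Nr4a1, which marks recent antigen receptor signals, had 435 CPM in positive and 400 CPM in negative cells (1.09, 0.910 to 1.29). Of 15 measured NF-κB genes, Nfkb2 alone was called, as higher, beside 1.43% of all genes. It had 122 CPM in positive and 58.1 CPM in negative cells (2.10, 1.45 to 2.98), and this call was lost with the weighted mixture, at 1.78. Of the 15, 13 had a ratio above 1, with a median log2 ratio of 0.53. Rel stood at 1.75 (1.40 to 2.18), and Nfkbia, the inhibitor that NF-κB itself induces, at 1.52 (1.37 to 1.69). The median log2 ratio of the immediate early genes was 0.03 in skin-fitted, 0.58 in pLN-fitted and 0.24 in thymus-fitted cells, and 0.20 with the weighted mixture. That of the NF-κB genes was 0.13 in skin-fitted, -0.03 in pLN-fitted and 0.24 in thymus-fitted cells, and 0.26 with the weighted mixture. In the other libraries the immediate early median was 0.67 in thymus Vγ6, 0.05 in skin Vγ6, -0.10 in pLN Vγ6 and -0.0013 in skin Vγ4. The NF-κB median was 0.70 in thymus Vγ6, 0.15 in skin Vγ6, 0.77 in pLN Vγ6 and 0.18 in skin Vγ4. Junb had a ratio of 1.17 in skin-fitted, 2.33 in pLN-fitted and 1.65 in thymus-fitted cells.

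**Figure D3:**
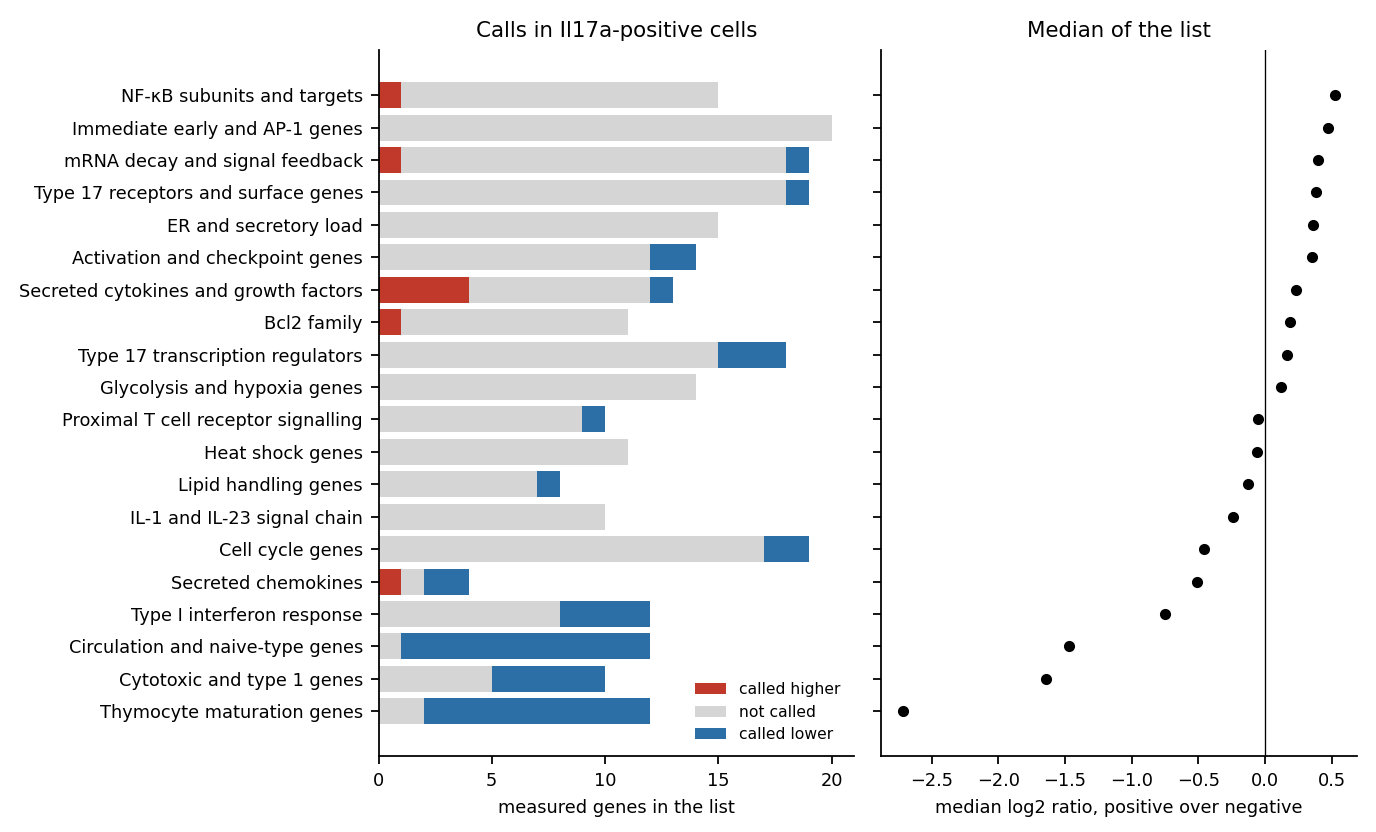
For 20 gene lists, the left panel gives the number of measured genes called higher, not called and called lower in Il17a-positive cells, and the right panel the list's median log2 ratio of positive over negative cells. Secreted cytokines hold 4 of the genes called higher, while circulation, thymocyte and cytotoxic genes hold most of the lists' lower calls and have medians of -1.47, -2.72 and -1.64.

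Circulation and naive-type genes were lower over all cells of the pool, with a median log2 ratio of -1.47. Of 12 measured, 11 were called lower and 0 higher, beside 4.02% of all genes. Klf2, the transcription factor that drives the genes of lymphocyte recirculation, had 170 CPM in positive cells and 465 CPM in negative cells (0.366, 0.278 to 0.475). S1pr1, the sphingosine phosphate receptor used to leave tissues, had 9 UMIs in positive and 217 UMIs in negative cells (0.270, 0.122 to 0.521). Ms4a4b, a membrane protein of resting T cells, had 90.9 CPM in positive and 536 CPM in negative cells (0.169, 0.115 to 0.240) and was found in 8.52% of positive and 24.4% of negative cells. Tcf7 had 73.8 CPM in positive and 181 CPM in negative cells (0.408, 0.264 to 0.607), and Lef1, its relative among Wnt-pathway transcription factors, had 1 UMI in positive and 345 UMIs in negative cells (0.0188, 0.000476 to 0.106). Cd27, the costimulatory receptor whose absence marks IL-17-producing γδ T cells in mice, had 45.4 CPM in positive and 128 CPM in negative cells (0.355, 0.200 to 0.586). The group's median log2 ratio was -2.09 in thymus-fitted, -1.20 in pLN-fitted and -0.40 in skin-fitted cells. In the other libraries it was -0.69 in thymus Vγ6, -0.46 in pLN Vγ6, -0.25 in skin Vγ4 and 0.11 in skin Vγ6. In skin-fitted cells Ms4a4b and Cd27 were not lower, with ratios of 1.27 (0.459 to 3.05) and 1.26 (0.554 to 2.62), and Cd27 stood at 1.09 (0.278 to 3.08) in pLN-fitted cells.

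Thymocyte maturation genes were called lower in 10 of 12 measured, beside 4.02% of all genes, with a median log2 ratio of -2.72. Sox4, a transcription factor of immature γδ thymocytes, had 2 UMIs in positive cells and 259 in negative cells (0.0502, 0.00605 to 0.183). Plac8 had 4 UMIs in positive and 383 UMIs in negative cells (0.0679, 0.0184 to 0.175), the chemokine receptor Ccr9 had 2 UMIs in positive and 166 UMIs in negative cells (0.0783, 0.00941 to 0.287), and Cd24a, the heat-stable antigen of immature thymocytes, had 1 UMI in positive and 80 UMIs in negative cells (0.0813, 0.00203 to 0.466). The difference lay in thymus-fitted cells, where the list's median log2 ratio was -3.65, against 0.03 in skin-fitted and 0.05 in pLN-fitted cells. The genes of the list had themselves taken part in the fit. In the other libraries the list's median was -0.99 in thymus Vγ6, -1.40 in skin Vγ4, 0.19 in skin Vγ6 and 0.17 in pLN Vγ6. Sox4 had 1 UMI in thymus-fitted positive cells and 248 in thymus-fitted negative cells. Markers of αβ T cells and thymocytes moved with these genes: of 6 markers 1 was detected in positive cells, with 1 UMI in all, and 5 in negative cells, with 83 UMIs, or 2.84 CPM (0.0719 to 15.8) in positive and 36.3 CPM (28.9 to 44.9) in negative cells. Cd4, Cd8a, Rag1, Ptcra and Dntt were at 0 in positive cells. Rag1 was at 0 in negative cells as well. Ptcra had 8 UMIs in negative cells, with a ratio interval that reaches 3.81. The 0 of these 2 genes on the smaller positive side therefore shows no difference. Dntt had 29 UMIs in negative cells, with an interval that reaches 0.882. The part of αβ T cells and thymocytes in the result was not tested. With cells that carried at least 2 UMIs of any non-T marker list left out, the number of genes called lower was 213.

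Cytotoxic and type 1 genes were called lower in 5 of 10 measured, beside 4.02% of all genes. Their median log2 ratio was -1.64, or -1.17 with Cxcr3, at 0 UMIs in positive cells, set to the limit of 3 UMIs. Gzma, which encodes the protease granzyme A, had 3 UMIs in positive cells and 461 in negative cells (0.0423, 0.00869 to 0.124), the negative ones spread over 58 cells. Nkg7, a cytotoxic granule protein, had 59.6 CPM in positive and 402 CPM in negative cells (0.148, 0.0914 to 0.228) and was found in 4.93% of positive and 18.9% of negative cells. In skin-fitted cells Gzma had 1 UMI in positive and 3 in negative cells. Gzmb, another granzyme, stood at 85.2 CPM in positive and 82.6 CPM in negative cells (1.03, 0.677 to 1.52). Markers of natural killer cells moved with this group: 4 UMIs of 1 of 5 markers in positive cells (11.4 CPM, 3.10 to 29.1) against 111 UMIs of 5 markers in negative cells (48.5 CPM, 39.9 to 58.4), with Ncr1, Klre1, Eomes and Prf1 at 0 in positive cells. Eomes had 14 UMIs and Prf1 had 2 UMIs in negative cells, with ratio intervals that reach 1.96 and 34.6. Their 0 in positive cells therefore shows no difference. The part of natural killer cells in the result was not tested. Within fitted classes Nkg7 had ratios of 0.595 in skin-fitted, 0.218 in pLN-fitted and 0.0766 in thymus-fitted cells. In the other libraries the median log2 ratio of the cytotoxic and type 1 genes was smaller. It was -0.44 in thymus Vγ6, -0.34 in pLN Vγ6, -0.47 in skin Vγ4 and -0.15 in skin Vγ6.

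Other genes at the low end were spread over signalling and adhesion. Lck, the kinase that starts T cell receptor signalling, had 8 UMIs in positive cells (22.7 CPM) and 348 in negative cells (152 CPM), a ratio of 0.149 (0.0640 to 0.298), while the receptor subunits Cd3e and Cd3g stood at 0.968 and 1.24. Lgals3, which encodes galectin-3, had 256 CPM in positive and 635 CPM in negative cells (0.402, 0.322 to 0.498), with ratios of 0.552 in skin-fitted, 0.289 in pLN-fitted and 0.571 in thymus-fitted cells. Ikzf2, which encodes the transcription factor Helios, had 148 CPM in positive and 388 CPM in negative cells (0.381, 0.282 to 0.504). Of 12 measured type I interferon response genes, 4 were called lower, beside 4.02% of all genes. Among them was Rtp4 at 17.04 CPM in positive and 56.4 CPM in negative cells (0.302, 0.109 to 0.676). Cell cycle genes were called lower in 2 of 19, beside 4.02% of all genes, with a median log2 ratio of -0.46. The call of Ccnb1 rested on 6 UMIs in positive cells (0.438, 0.157 to 0.992). Stmn1, a tubulin-binding protein of dividing cells, had 247 CPM in positive and 514 CPM in negative cells (0.481, 0.382 to 0.598), and Mki67 had 28.4 CPM in positive and 31.5 CPM in negative cells (0.903, 0.415 to 1.76). Cells with at least 2 UMIs summed over 8 division genes made up 12 of 223 positive cells (5.38%, 2.81 to 9.21) and 108 of 1416 negative cells (7.63%, 6.30 to 9.13).

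H2-Aa, an MHC class II gene of antigen-presenting cells, had 0 UMIs in positive cells, bounded by 3 UMIs or 8.52 CPM, and 129 UMIs (56.4 CPM) in negative cells. The 8 dendritic cell markers summed to 454 CPM (387 to 531) in positive cells and 785 CPM (749 to 822) in negative cells, with H2-Aa, Cd207, Itgax and Flt3 at 0 in positive cells. Of these 8 markers, 4 were detected in positive cells and 7 in negative cells. Mast cell markers had 1 UMI in positive and 85 in negative cells, and keratinocyte markers 153 CPM (115 to 200) in positive and 116 CPM (102 to 131) in negative cells. The other marker lists, of macrophages, B cells, fibroblasts, endothelium, melanocytes, neutrophils and erythroid cells, reached at most 45.4 CPM in positive cells and 73.4 CPM in negative cells.

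**Figure D4:**
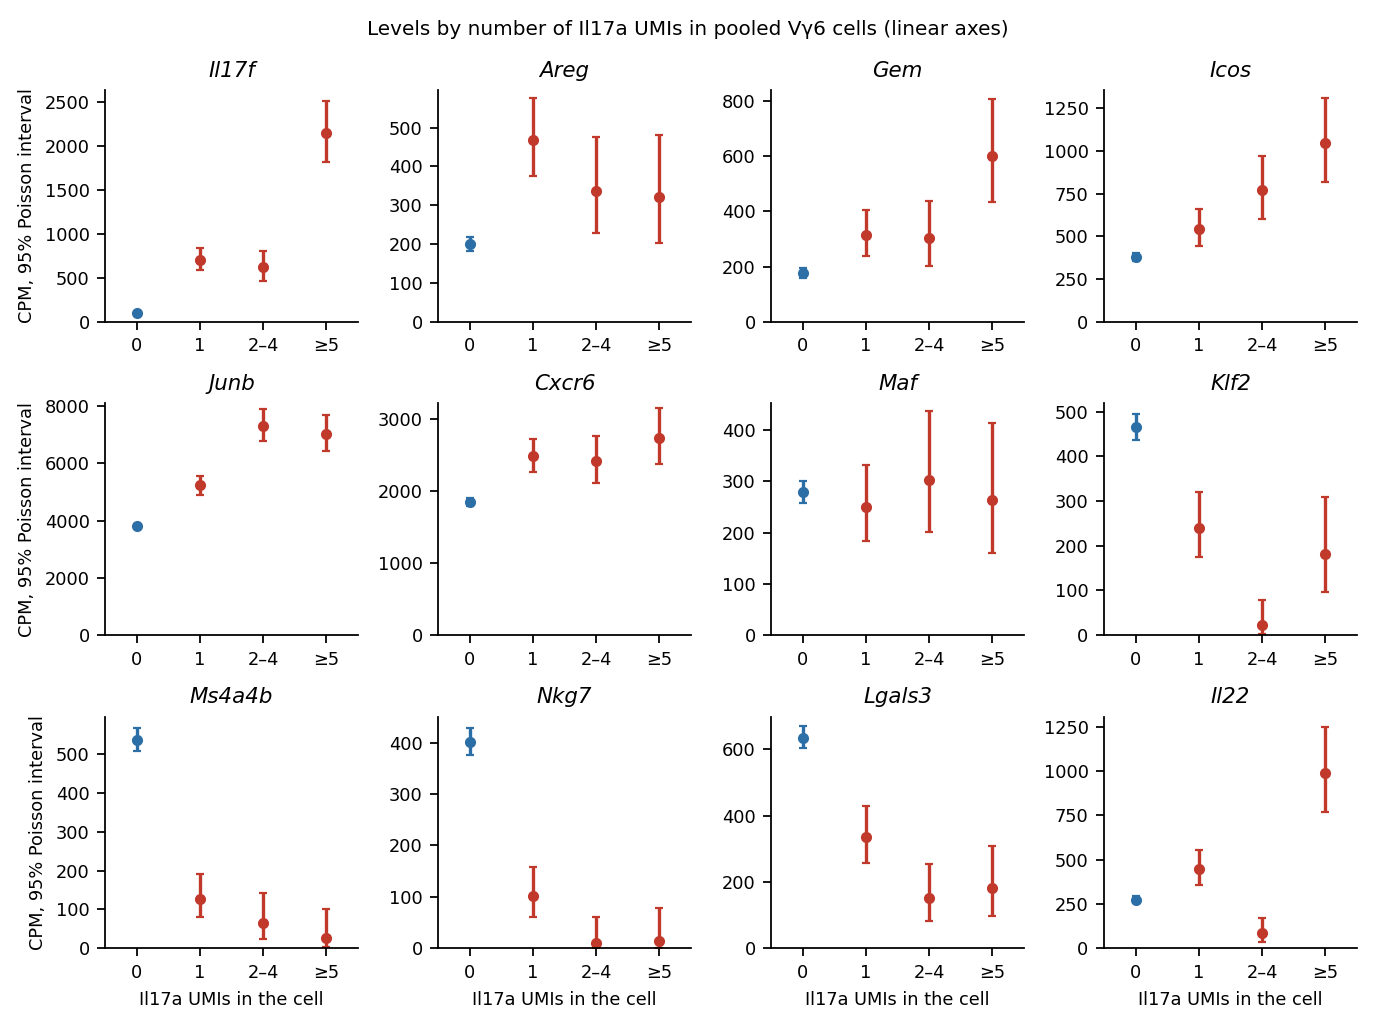
CPM with exact 95% Poisson intervals for 12 genes in pooled Vγ6 cells with 0 (blue), 1, 2 to 4 and 5 or more (red) Il17a UMIs, on linear axes that start at 0. Il17f is at 97.8, 702, 617 and 2144 CPM, Icos is higher at each step with intervals of the top 3 classes that overlap their neighbours, and Ms4a4b and Nkg7 drop already at 1 UMI.

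Genes followed the number of Il17a UMIs in different shapes. Icos stood at 379, 543, 769 and 1044 CPM in cells with 0, 1, 2 to 4 and 5 or more Il17a UMIs. Junb stood at 3813, 5225, 7309 and 7031 CPM over the same classes, and Gem at 176, 314, 303 and 599 CPM. Areg and Fth1 had their highest values at 1 UMI, with 199, 468, 336 and 320 CPM for Areg and 6187, 10833, 10017 and 7825 CPM for Fth1. On the lower side, Ms4a4b stood at 536, 128, 65.0 and 27.8 CPM, and Nkg7 at 402, 101, 10.8 and 13.9 CPM. Klf2 stood at 465, 239, 21.7 and 181 CPM, the last on 13 UMIs. Maf stood at 279, 250.1, 303 and 265 CPM, with intervals that overlap. The levels of Ms4a4b and Nkg7 at 1 Il17a UMI thus already lay below those at 0, with intervals that do not overlap.

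The same contrast was tested in the 4 libraries that the selection of pooled cells did not use. UMIs were summed by library and Il17a status, with the library as a block, so the spread is that between libraries which differ in tissue, subset and run. Positive cells there numbered 341 in skin Vγ4, 128 in skin Vγ6, 119 in thymus Vγ6 and 25 in pLN Vγ6. Unlike in the pool, depth was not near equal in all of them. Median UMIs per positive and negative cell were 2999 and 1741 in pLN Vγ6, and 2441 and 2151 in thymus Vγ6. They were 1567 and 1443 in skin Vγ4, and 1198.5 and 1122 in skin Vγ6. Of 5332 genes tested with edgeR's quasi-likelihood test and Benjamini-Hochberg adjustment, 3 were higher (0.0563%) and 1 was lower (0.0188%) at an adjusted p under 0.05. At an unadjusted p under 0.05 there were 126 higher and 134 lower, and DESeq2 called 2 higher and 1 lower.

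Il17f rose with a log2 fold change of 2.31 (edgeR adjusted p = 0.00591), higher in 3 of 4 libraries. It had 3340 CPM in positive and 394 CPM in negative cells of skin Vγ6, 92.0 CPM in positive and 6.83 CPM in negative cells of thymus Vγ6, and 4929 CPM in positive and 2256 CPM in negative cells of skin Vγ4. In pLN Vγ6 it had 0 UMIs in positive cells and 4 UMIs in negative cells, a library with only 25 positive cells. The call was lost with DESeq2 (adjusted p = 0.40), without the skin Vγ6 library (edgeR adjusted p = 0.142) and without the pLN Vγ6 library (edgeR adjusted p = 0.0949), and the log2 fold change was 1.87 without skin Vγ6.

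Areg rose with a log2 fold change of 1.34 (edgeR adjusted p = 0.00542), at 1162 CPM in positive and 394 CPM in negative cells of skin Vγ6, 88.7 CPM in positive and 26.4 CPM in negative cells of thymus Vγ6, and 692 CPM in positive and 363 CPM in negative cells of skin Vγ4. It had no UMI on either side in pLN Vγ6. The Areg call was lost without skin Vγ6 (edgeR adjusted p = 0.142, log2 fold change 1.24). Gzma fell by 1.94 on the log2 scale (edgeR adjusted p = 0.00293), with 197 CPM in positive and 718 CPM in negative cells of thymus Vγ6 and 29.2 CPM in positive and 134 CPM in negative cells of skin Vγ4. In pLN Vγ6 it had 0 UMIs in positive and 66 UMIs in negative cells, and in skin Vγ6 1 UMI on each side. Gzma did not pass the filter on low counts without skin Vγ4, without thymus Vγ6 or after thinning to 800 UMIs, so its call had no test there.

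Ccl20, the ligand of the type 17 chemokine receptor Ccr6, had the largest fold change of the 4 genes, with a log2 fold change of 4.12 (edgeR adjusted p = 0.000234). It was named after its values were seen. Its edgeR adjusted p was at most 0.00332 with skin Vγ6, pLN Vγ6 or thymus Vγ6 left out. Without skin Vγ4, in which most of its UMIs lay, and after thinning to 800 UMIs it did not pass the filter on low counts, so its call had no test there. Ccl20 had 88.1 CPM in positive and 13.004 CPM in negative cells of skin Vγ6, 23.0 CPM in positive and 0.159 CPM in negative cells of thymus Vγ6, and 405 CPM in positive and 22.5 CPM in negative cells of skin Vγ4. The pooled library did not show this, with 2 UMIs in 2 positive cells and 44 UMIs in 8 negative cells, 25 of them in 1 cell (0.296, 0.0347 to 1.13).

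Just outside the threshold were Sox4 (log2 fold change -1.36, edgeR adjusted p = 0.0625) and Lck (log2 fold change -1.45, edgeR adjusted p = 0.0644), each lower in 4 of 4 libraries. Ms4a4b, Gimap6 and Ccl5 had log2 fold changes of -1.14, -1.20 and -1.58, with edgeR adjusted p-values of 0.129, 0.122 and 0.122. Among the genes called in the pool, 40 of those higher were tested and 35 of these had a fold change above 0 over the other libraries, beside 48.1% of all genes tested. Of 155 pooled-lower genes tested, 118 had a fold change below 0. By library, of genes with at least 20 CPM, 30 of 45 pooled-higher genes had a ratio above 1 in skin Vγ6, 22 of 25 in thymus Vγ6, 17 of 26 in pLN Vγ6 and 30 of 38 in skin Vγ4. Of the pooled-lower genes, 43.6% had a ratio above 1 in skin Vγ6, 17.1% in thymus Vγ6, 45.2% in pLN Vγ6 and 35.3% in skin Vγ4, against 49.98%, 45.5%, 49.3% and 47.99% of all genes in the same libraries.

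**Figure D5:**
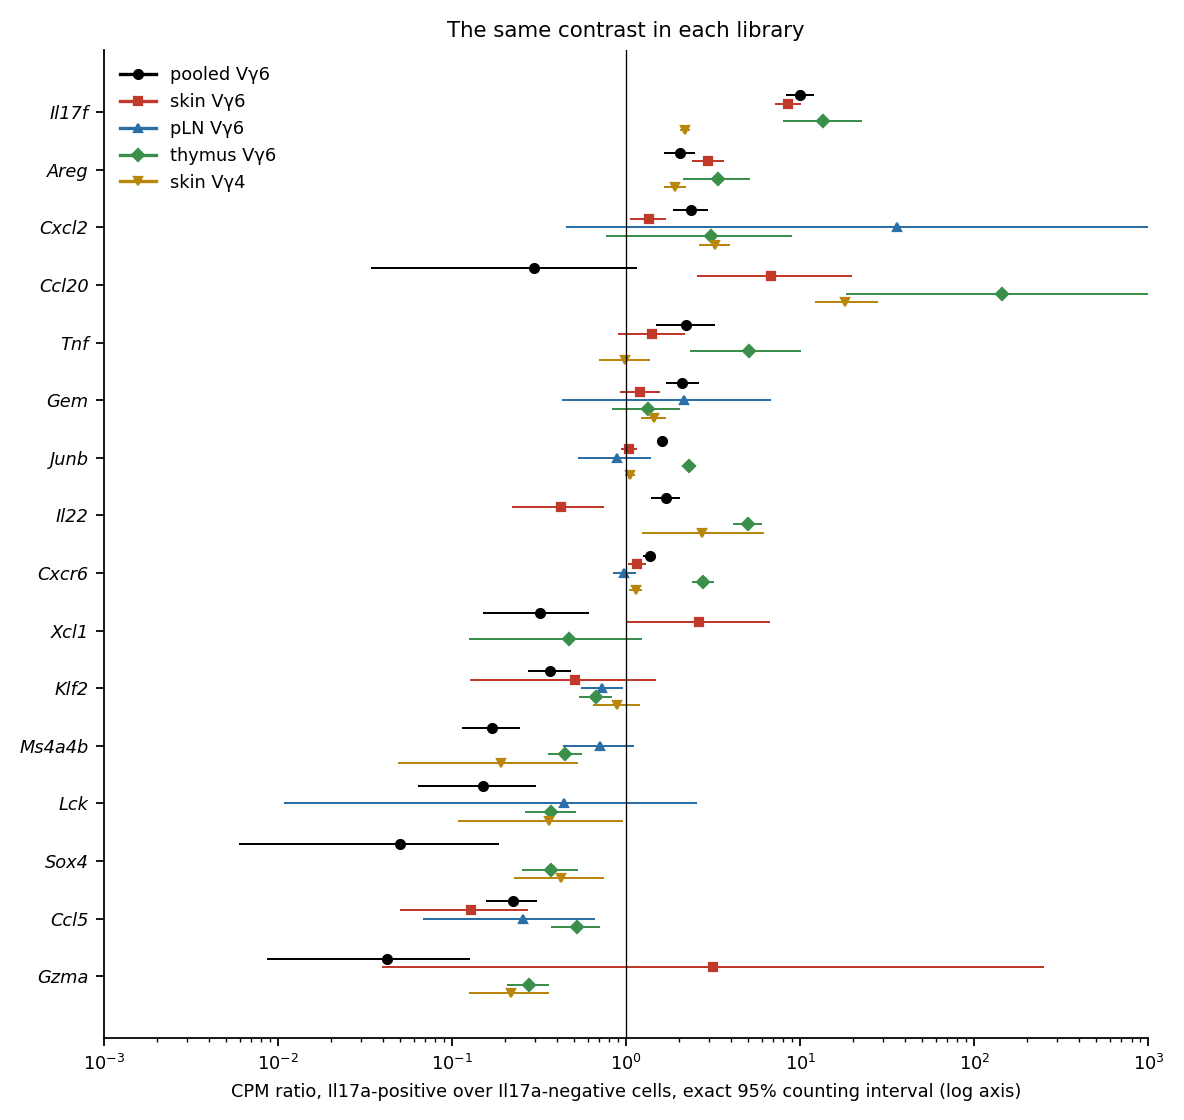
Ratio of Il17a-positive over Il17a-negative CPM with exact 95% counting intervals (log axis) for 16 genes in the pooled library and the other 4, where both sides have a UMI. Il17f lies above 1 in the 4 libraries shown, Ccl20 is below 1 in the pooled library and above 1 in the 3 others shown, and Il22 is at 0.421 in skin Vγ6 and 4.99 in thymus Vγ6.

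Genes that separated the pooled sides by less than 2-fold varied between libraries. Junb had a ratio of 2.3 (2.13 to 2.49) in thymus Vγ6, 1.04 in skin Vγ6, 1.05 in skin Vγ4 and 0.882 in pLN Vγ6. Cxcr6 had 2.76 (2.43 to 3.13) in thymus Vγ6, 1.15 in skin Vγ6, 1.13 in skin Vγ4 and 0.976 in pLN Vγ6. Il22 had 4.99 (4.15 to 5.98) in thymus Vγ6, on 149 UMIs in positive and 617 UMIs in negative cells, and 0.421 (0.223 to 0.739) in skin Vγ6, on 14 UMIs in positive and 105 UMIs in negative cells. No difference between libraries was tested here.

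The positive share itself was 29.9% in skin Vγ4, 22.8% in skin Vγ6, 4.75% in thymus Vγ6 and 1.79% in pLN Vγ6, at median depths of 1142 to 2160.5 UMIs. The pooled share of 13.6% lay between the highest and the lowest of the 3 Vγ6 libraries.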

How the data were processed

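The authors deposited, per library, a matrix of raw UMI counts for 27998 genes per cell barcode, without normalization. The submitters' processing notes name Cell Ranger 2.0, Seurat 2.3 and build mm10, with no roles. Libraries were made with a droplet kit that reads transcript 3′ ends, per the labels' protocols. Ear skin was digested with collagenase and thymus cells were treated with antibody and complement, so tissue and preparation changed together.

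Deposited counts were summed per side in Python 3.11.15 and given as CPM, with 1 CPM added on the log2 scale. Zeros were bounded by 3 UMIs. Profiles for the tissue fit had 1 count added per gene. A doublet caller marked 2 kept cells and was not used to remove any. The libraries shared 2 to 13 cell barcodes per pair. The other libraries were tested with edgeR 4.0.16 (TMM, filterByExpr), with DESeq2 1.42.0 as an alternative, in R 4.3.3. The calling and the edgeR fit were tested on simulated data.

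Named genes were the 15 highest and 15 lowest by the interval bound nearest to 1, with at least 50 CPM and a UMI in 10% of the cells of the higher side (mitochondrial, ribosomal and other-cell marker genes left out), a fixed list, and up to 4 called genes per list. The members and lists were chosen with earlier results of these data known. Replicates are libraries, and whether any came from separate mice was not given in the sources used here, so p-values measure only the spread between libraries. Alternatives changed the Il17a threshold, depth, cell filters, mixture, scaling and tool. The authors' 2 cluster tables were not used.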

Additional observations from a re-analysis of the deposited data

Results flagged for a closer look

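Xcl1, a chemokine of activated lymphocytes, was lower in Il17a-positive cells of the pool, at 28.4 CPM against 88.7 CPM in negative cells (0.320, 0.151 to 0.601). In the skin Vγ6 library it was higher in positive cells, with a ratio of 2.63 (1.02 to 6.65) on 10 UMIs in positive cells and 12 UMIs in negative cells. It was picked out because both counting intervals exclude 1 on opposite sides, which also held for Il22, a gene not called in the pool. The difference between the libraries was not tested. In the pool, 6 of the 10 Xcl1 UMIs in positive cells sat in 1 cell, and the highest negative cell held 39 of 203.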

How the results depend on the processing

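In the pool, the number of genes called higher (81) became 130 with at least 2 Il17a UMIs for a positive cell, 22 with at least 50 CPM, 139 with no CPM minimum and 215 at 1.5-fold, and 133 in pLN-fitted and 160 in thymus-fitted cells alone. The number called lower (228) became 126 with status read after thinning to 800 UMIs, 87 with at least 50 CPM, and 83 in skin-fitted and 90 in pLN-fitted cells alone. The median log2 ratio of all genes became -0.26 with no CPM minimum and 0.051 in pLN-fitted cells. The positive share became 10.1% after thinning and 6.22% with at least 2 UMIs. With negative cells weighted to the fitted mixture, an alternative chosen after seeing the data, 71 genes were called higher, 58 of them shared with the 81, and 185 lower, 176 of them shared with the 228. With exactly 1 Il17a UMI, also chosen after seeing the data, 109 were called higher and 201 lower.

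Within skin-fitted cells 9 named genes turned above 1, with log2 ratios of 0.97 for Ms4a6b, 0.66 for Il16, 0.33 for Cd27, 0.15 for Ccl5, 0.61 for Dusp10, 0.33 for Ms4a4b, 0.051 for Scd2, 3.28 for Cd24a and 0.42 for Gzma. Within pLN-fitted cells 8 turned, with -2.69 for Cxcl2, -0.54 for Bcl2l1, -5.35 for Csf2, 0.026 for Stmn1, 0.79 for Ccnb1, 0.12 for Cd27, 0.76 for 1190002N15Rik and 0.20 for Sox4. Within thymus-fitted cells Cxcl2 turned, at -4.75. Fitted classes hold 47 to 95 positive cells, so these rest on few UMIs, and the cause was not tested.

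Over the other 4 libraries the number of genes higher (3) became 37 with no filter on low counts and 0 with no library block, and ranged from 2 to 8 with 1 library left out, the 8 without thymus Vγ6. The number lower (1) became 24 with no filter, 4 after thinning to 800 UMIs and 0 in the Vγ6 libraries alone or with no block, and ranged from 0 without skin Vγ4 to 4 without thymus Vγ6. Depth limits genes under 20 UMIs on the positive side, and a count of 0 there allows up to 8.52 CPM.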

Other observations

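Of 15 measured genes of the endoplasmic reticulum and secretory load, which fold and export secreted proteins, none was called, 14 had a ratio above 1 and the counting interval of 11 lay above 1, with a median log2 ratio of 0.36 over all cells, 0.26 in skin-fitted, 0.32 in pLN-fitted and 0.49 in thymus-fitted cells. In the other libraries the median was 0.43 in thymus Vγ6, 0.13 in skin Vγ6, -0.23 in pLN Vγ6 and 0.02 in skin Vγ4. Hspa5, the chaperone BiP, had 2911 CPM in positive and 1818 CPM in negative cells (1.60, 1.49 to 1.71). Pdia6, a disulfide isomerase, had 963 CPM in positive and 562 CPM in negative cells (1.71, 1.51 to 1.93), and Manf, a secreted stress protein, had 1099 CPM in positive and 715 CPM in negative cells (1.54, 1.37 to 1.72). Heat shock genes, 11 measured, had a median log2 ratio of -0.06, and glycolysis and hypoxia genes, 14 measured, had 0.12, with none called in either list.

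Of 19 measured genes of mRNA decay and signal feedback, 1 was called higher and 1 lower, beside 1.43% and 4.02% of all genes. Their median log2 ratio was 0.40. Rgs1, a brake on chemokine receptor signals, stood at 1.63 (1.45 to 1.84), Zc3h12a, the RNase regnase-1, at 1.63 (1.13 to 2.29), and Dusp10, a phosphatase of MAP kinases, at 0.203 (0.0868 to 0.406). Of 14 activation and checkpoint genes 2 were called lower, beside 4.02% of all genes, with a median log2 ratio of 0.35. These were Cd160, on 1 UMI in positive and 62 UMIs in negative cells, and Tnfrsf18, on 15 UMIs in positive and 202 UMIs in negative cells. Il2ra, the interleukin-2 receptor α chain, stood at 1.81 (1.40 to 2.31). Of 11 Bcl2 family genes Bcl2l1 alone was called, as higher, beside 1.43% of all genes, with a median log2 ratio of 0.18. The remaining medians were -0.24 for 10 genes of the interleukin-1 and interleukin-23 signal chain, -0.13 for 8 lipid handling genes, -0.05 for 10 genes of proximal T cell receptor signalling and -0.75 for 12 type I interferon response genes.

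Outside the lists, and chosen after their values were seen, Calca, which encodes calcitonin and the neuropeptide CGRP, had 105 CPM in positive and 51.1 CPM in negative cells (2.06, 1.38 to 3.00). Irak3, an inhibitor of interleukin-1 receptor signalling, had 65.3 CPM in positive and 25.3 CPM in negative cells (2.58, 1.52 to 4.24).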
